A study of Arabidopsis thaliana with 9 samples.

Results

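Transcript levels in arid2/3/4 mutant seedlings were set against those in wild-type (WT) seedlings of Arabidopsis thaliana. The genes compared were all nuclear genes at 0.5 FPKM or more (fragments scaled by transcript length and library size) in at least 3 of the 9 libraries of the series. This rule kept 21168 of 27839 nuclear genes, out of 28117 in the table. The tested libraries were 3 of the genotype arid2-/-arid3-/-arid4-/- and 3 of wild type. Another 3 libraries, of the genotype epcr1-/-epcr2-/-, entered the fit only through the shared estimate of the spread. The RNA came from whole seedlings 10 days old, raised on MS plates under 16 h of light and 8 h of darkness, and was sequenced as mRNA. The labels give neither the nature of the alleles nor the number of plants behind a library. The p-values therefore measure the spread between these libraries, which may be technical.

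ARID2, ARID3 and ARID4 carry an ARID domain, which binds DNA, and are subunits of the PEAT complexes. These complexes join PWWP proteins, Enhancer of Polycomb-related (EPCR) proteins, ARID proteins and telomere repeat binding (TRB) proteins, and have been tied to histone deacetylation and to the silencing of heterochromatin and transposons. In plants, DNA methylation is laid down through small RNAs, copied by maintenance enzymes and removed by DNA glycosylases such as ROS1, so that a change in silencing can show in the transcripts of these enzymes. The gene names ARID, EPCR and PWWP were assigned from knowledge of the study and not from the annotation.

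Values below follow the order of replicates 1, 2 and 3, and each fold change is on the log2(FPKM + 1) scale with its standard error (SE), which understates the change of low genes. Within a genotype, replicates 1 and 2 had a Pearson r of 0.994 to 0.995 across genes, and replicate 3 had 0.835 to 0.879 with either of them. The rough depth was 19.5 to 23.4 M fragments in replicates 1 and 2 and 49.0 to 56.2 M in replicate 3, and 22490 to 24297 genes were above 0 in a library. Whether replicates 1 and 2 share plants was not given. Results are therefore also reported with the replicate number as a block (the block fit), and with replicates 1 and 2 of each genotype averaged as 1 sample under the same block (the averaged fit). A call is said to hold throughout where it passed in each of 22 alternative settings that tested the gene. In whole seedlings, fewer cells of a type and less RNA per cell cannot be told apart.

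ARID2 stood at 2.12, 2.15 and 2.06 FPKM in arid2/3/4, against 22.5, 20.15 and 22.5 FPKM in WT. ARID4 had 3.58, 3.13 and 4.28 FPKM in arid2/3/4, against 11.4, 10.9 and 13.6 FPKM in WT. The lowest WT library lay above the highest arid2/3/4 library for both genes, and replicate 3 lay with the others. ARID3 had 3.6, 4.04 and 5.62 FPKM in arid2/3/4, against 8.68, 8.22 and 8.65 FPKM in WT, also without overlap, and its remaining level was the highest of the 3 mutated genes relative to WT. The log2 fold changes were -2.87 for ARID2, -1.48 for ARID4 and -0.83 for ARID3, whose call ended in the averaged fit (-0.76, adjusted p = 0.0743). Of the 11 other PEAT genes none passed with limma (range -0.47 to 0.34), and 4 of them (PWWP2, HAM1, TRB3 and HAM2) were lower with the block fit.

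At an adjusted p under 0.05 (limma, Benjamini-Hochberg), 1859 genes (8.78% of those tested) were higher in arid2/3/4 and 2540 (12%) were lower. These shares are the background for each limma count of list or family members below. With the block fit 4106 genes (19.4%) were higher and 5439 (25.7%) lower, and with the averaged fit 781 were higher and 1230 lower. Without arid2/3/4 replicate 1 the counts were 897 higher and 1309 lower, without arid2/3/4 replicate 2 they were 926 and 1243, without WT replicate 1 they were 983 and 1378, and without WT replicate 2 they were 966 and 1519. Without arid2/3/4 replicate 3 they were 3045 higher and 4019 lower. The median log2 fold change of all genes tested was -0.05, and -0.06 in replicates 1 and 2 and -0.03 in replicate 3. A rise of at least 4-fold was seen in 326 of the called genes and a fall of that size in 188. On the log2(FPKM + 1) scale, called changes of at least 4-fold were therefore more often rises. This scale caps the fall of a gene that is low in WT, so the sizes of rises and falls cannot be compared directly. Among genes that averaged under 1 FPKM, 9.93% were called higher and 17.5% lower, and among those of 20 to 100 FPKM 9.30% were called higher and 7.49% lower.

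**Figure D1:**
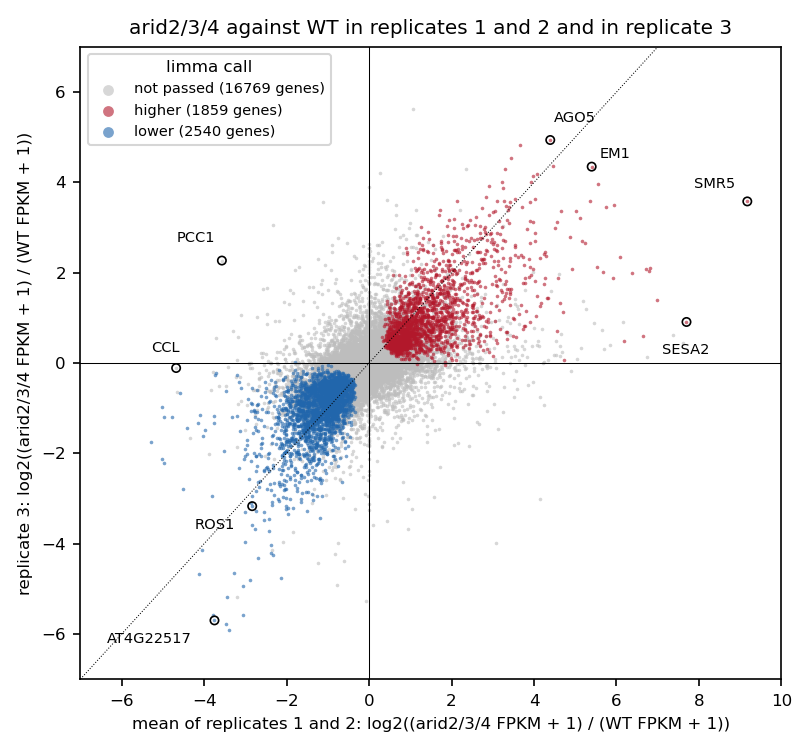
Each point is a gene tested. The horizontal axis gives the log2 ratio of arid2/3/4 over WT as the mean of replicates 1 and 2 and the vertical axis the same ratio in replicate 3, both on the log2(FPKM + 1) scale. Red points were called higher (1859) and blue points lower (2540) by limma. ROS1 and AGO5 lie near the diagonal, SESA2 and CCL changed far less in replicate 3, and PCC1 changed in opposite directions.

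Most genes of the DNA damage response rose, while most of those of mitosis fell. In plants the transcription factor SOG1 answers broken or stalled DNA by switching on inhibitors of the cell cycle and genes of repair, and genes that act in mitosis are then repressed. SOG1 is known to bind a palindrome of CTT and AAG with a spacer between, and AACGG is the core of the element through which MYB3R factors control mitotic genes. The 250 bases before the annotated starts of 4 genes are printed because they hold these letters and the genes moved in opposite directions. They were read 5′ to 3′ on the gene's strand from the RefSeq TAIR10.1 genome by locus tag. Capitals mark CTT and AAG set 7 bases apart, with the bases between, in SMR5 and SMR7 and AACGG, on either strand, in CYCB1;2 and CYCB1;1. SMR5 lies before the start at chr1:2305032-2305281, SMR7 at chr3:10231568-10231817, CYCB1;2 at chr5:1861704-1861953 and CYCB1;1 at chr4:17624309-17624558, all on the minus strand.
SMR5: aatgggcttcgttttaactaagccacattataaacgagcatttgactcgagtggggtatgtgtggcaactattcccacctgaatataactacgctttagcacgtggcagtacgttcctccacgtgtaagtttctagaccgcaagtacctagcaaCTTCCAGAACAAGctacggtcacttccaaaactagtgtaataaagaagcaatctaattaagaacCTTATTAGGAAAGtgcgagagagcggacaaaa
SMR7: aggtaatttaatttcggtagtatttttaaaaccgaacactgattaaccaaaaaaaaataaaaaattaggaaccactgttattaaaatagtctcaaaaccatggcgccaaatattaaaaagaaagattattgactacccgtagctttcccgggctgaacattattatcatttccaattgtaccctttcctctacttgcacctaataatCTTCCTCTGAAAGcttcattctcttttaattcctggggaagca
CYCB1;2: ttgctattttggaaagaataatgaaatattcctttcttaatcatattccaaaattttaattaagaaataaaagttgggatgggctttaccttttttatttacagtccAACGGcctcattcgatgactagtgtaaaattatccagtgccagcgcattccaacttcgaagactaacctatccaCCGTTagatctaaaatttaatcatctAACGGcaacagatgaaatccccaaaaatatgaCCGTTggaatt
CYCB1;1: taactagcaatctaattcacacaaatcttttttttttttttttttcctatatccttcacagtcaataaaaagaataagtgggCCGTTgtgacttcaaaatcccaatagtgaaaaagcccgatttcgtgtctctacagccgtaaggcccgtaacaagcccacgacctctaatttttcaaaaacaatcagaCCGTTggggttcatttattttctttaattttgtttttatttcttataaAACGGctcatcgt
In the SMR5 window 2 matches began 96 and 32 bases before the start, and in the SMR7 window 1 match began 43 bases before it. The CYCB1;2 window held 4 matches to AACGG and the CYCB1;1 window 3.

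SMR5, an inhibitor of cyclin-dependent kinases that SOG1 induces, stood at 592, 561 and 111 FPKM in arid2/3/4, against 0, 0 and 8.35 FPKM in WT. It was listed at 0 in both WT libraries numbered 1 and 2, and arid2/3/4 replicate 3 was the lowest of the mutant libraries, still above the highest WT value. SMR7, a second inhibitor of this family, had 38.5, 35.7 and 70.6 FPKM in arid2/3/4, against 1.86, 1.3 and 5.03 FPKM in WT. GMI1, a repair protein with an SMC hinge, had 12.5, 11 and 23.1 FPKM in arid2/3/4, against 1.78, 1.51 and 1.84 FPKM in WT. For SMR7 and GMI1 replicate 3 was the highest mutant library, and the groups did not overlap. The limma log2 fold changes were 7.31 ± 1.03 for SMR5 (adjusted p = 0.00281), 3.78 ± 0.5 for SMR7 (adjusted p = 0.00206) and 2.54 ± 0.3 for GMI1 (adjusted p = 0.00138). The call of SMR5 ended in the averaged fit (6.38, adjusted p = 0.0642).

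The repair and replication members changed less. PARP2, a poly(ADP-ribose) polymerase, had 13.8, 13.5 and 21 FPKM in arid2/3/4, against 4.2, 4 and 6.79 FPKM in WT (1.51 ± 0.25, limma adjusted p = 0.00567). XRI1, an X-ray induced gene of repair, had 17.63, 16.3 and 22.5 FPKM in arid2/3/4, against 7.18, 6.74 and 9.04 FPKM in WT (1.19 ± 0.19, limma adjusted p = 0.00486). Neither pair of groups overlapped, and the log2 ratio in replicate 3 was 1.5 for PARP2 and 1.23 for XRI1. TSO2, a ribonucleotide reductase subunit that supplies nucleotides (1.5), and AGO2, an Argonaute tied to break repair (1.25), also rose. Their calls depended on single libraries. TSO2 ended on leaving out WT replicate 1 or either of arid2/3/4 replicates 1 and 2 (1.42 to 1.45). The call of TSO2 also ended in the averaged fit (1.37, limma adjusted p = 0.0838). AGO2 ended without any 1 of WT replicates 1 to 3 or arid2/3/4 replicates 1 and 2 (1.00 to 1.38). SOG1 itself did not pass, at 5.43, 4.79 and 3.73 FPKM in arid2/3/4, against 10.7, 9.13 and 5.58 FPKM in WT (-0.72 ± 0.29, limma adjusted p = 0.121), and was lower with the block fit (adjusted p = 0.00492). BRCA1 (0.63) and PARP1 (-0.46) did not pass either, and passed with the block fit, BRCA1 as higher and PARP1 as lower. In all, 7 of 10 members rose and 3 did not pass, with a median log2 fold change of 1.37 (1.37 in replicates 1 and 2 and 1.28 in replicate 3). The averaged fit called 5 higher.

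Of 63 tested genes described as NAC transcription factors 12 rose, 2 fell and 49 did not pass, with a median of 0.33, against 8.78% higher and 12% lower of all genes tested. The block fit called 26 higher and 6 lower. NAC044, known to be needed for the arrest of the cell cycle after DNA damage, had 14.2, 12.8 and 14.3 FPKM in arid2/3/4, against 0.998, 1.49 and 1.05 FPKM in WT (2.76 ± 0.14, limma adjusted p = 6.45e-05). NAC103 had 15.8, 13.2 and 15.8 FPKM in arid2/3/4, against 1.8, 1.84 and 0.88 FPKM in WT (2.69 ± 0.2, limma adjusted p = 0.000204). Every arid2/3/4 library exceeded every WT library for both genes, replicate 3 matched the others closely, and both calls held throughout. They were named as the largest changes in the family, and other NAC genes tied to DNA damage were not counted.

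Of 17 genes of mitosis and the cell cycle, 14 fell, 1 rose and 2 did not pass, with a median log2 fold change of -0.93, against -0.05 over all genes tested. The medians were -0.96 in replicates 1 and 2 and -0.97 in replicate 3. CDC20.1, an activator of the anaphase-promoting complex, had 5.55, 5.98 and 5.15 FPKM in arid2/3/4, against 19, 18.4 and 15.4 FPKM in WT (-1.5 ± 0.2, limma adjusted p = 0.00241). CYCB1;2, a B-type cyclin, had 5.62, 4.94 and 4.89 FPKM in arid2/3/4, against 16.8, 16.3 and 13.7 FPKM in WT (-1.43 ± 0.18, limma adjusted p = 0.00181). CYCA1;1, an A-type cyclin, had 4.56, 4.19 and 4.24 FPKM in arid2/3/4, against 10.5, 9.82 and 11 FPKM in WT (-1.1 ± 0.12, limma adjusted p = 0.000936). In these genes the replicates of a genotype lay close together, replicate 3 included, and the groups did not overlap. The B-type kinases CDKB1;2 (-1.18), CDKB2;1 (-1.1) and CDKB2;2 (-0.91) fell, as did the Aurora kinases AUR1 (-1.11) and AUR2 (-1.01). KNOLLE, the syntaxin of the cell plate, fell (log2 fold change -1.27). Its call ended on leaving out arid2/3/4 replicate 2 or either of WT replicates 1 and 2 (-1.34 to -1.21). PCNA1, the sliding clamp of replication (-0.46, limma adjusted p = 0.0692), and CDKB1;1 (-0.28, limma adjusted p = 0.259) did not pass, and PCNA1 passed as lower with the block fit. The averaged fit called 12 lower, and leaving out any 1 library gave 12 to 15.

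The member that rose was CYCB1;1, a B-type cyclin that is known to be induced by DNA damage while other mitotic genes are repressed. It had 12.5, 12.4 and 10.5 FPKM in arid2/3/4, against 6.05, 5.33 and 6.16 FPKM in WT, so that every mutant library was above every WT library (0.9 ± 0.14, limma adjusted p = 0.00424). The call ended in the averaged fit (0.84, adjusted p = 0.0525). Its window and that of CYCB1;2, printed above, both hold AACGG, and their transcripts moved in opposite directions. AACGG was present in the 250 bases before the start of 11 of the 17 mitotic genes (64.7%) and of 21.5% of 20752 protein-coding genes tested. Among all genes called it was present in 19.5% of those that rose and in 22.6% of those that fell. The pair of CTT and AAG 7 bases apart was present in 3 of 10 damage genes (30%: SMR5, SMR7 and PARP2), in 9.12% of all, in 11.9% of 1844 that rose and in 8.65% of 2519 that fell. Both motifs were searched on both strands, and the second reads the same on either. Such a match describes letters and not binding.

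**Figure D2:**
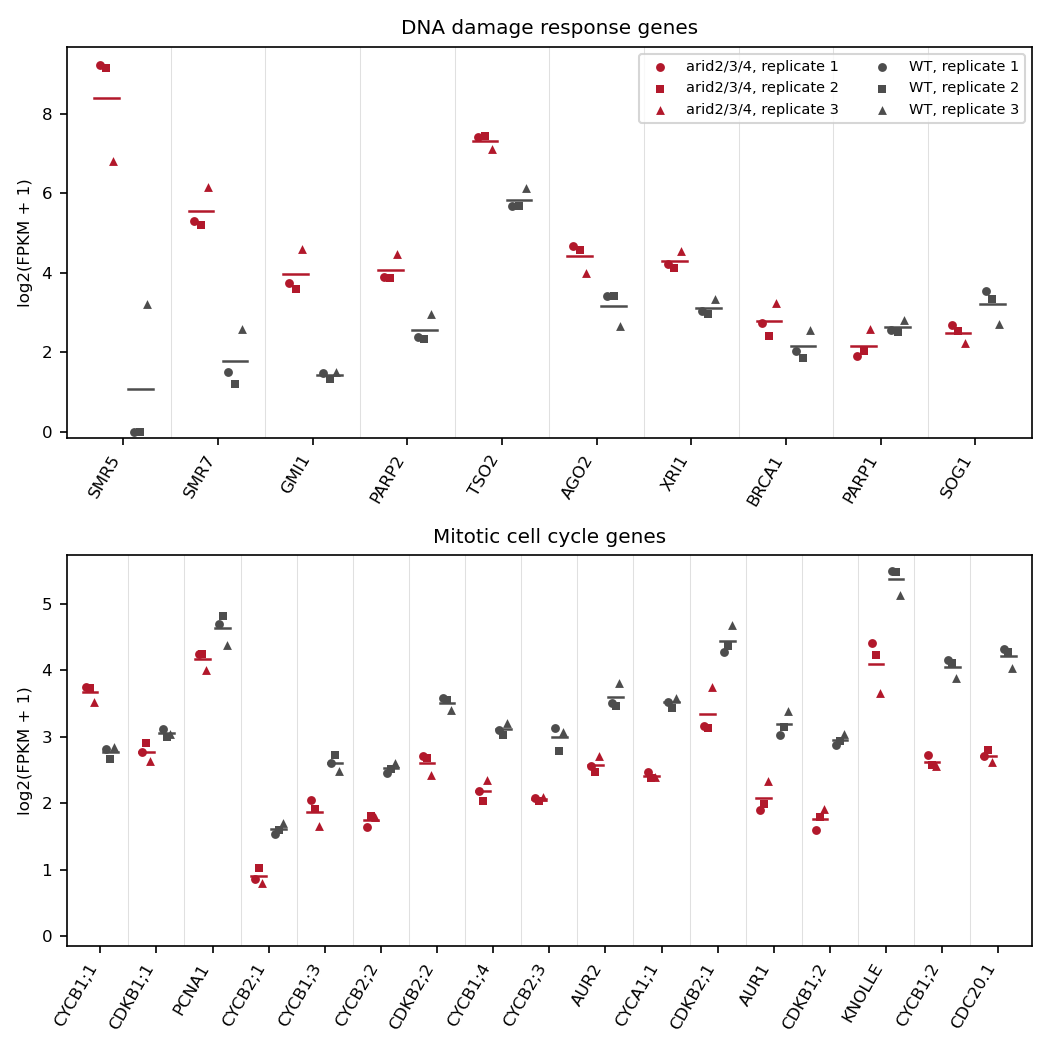
Values of log2(FPKM + 1) for 10 genes of the DNA damage response (upper panel) and 17 genes of mitosis and the cell cycle (lower panel), with a point for each library, arid2/3/4 in red left of WT in grey, and a line at the mean of 3. Of the damage genes 7 were called higher, and 14 of the mitotic genes lower. CYCB1;1 stands above WT in all 3 libraries.

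Of 8 genes that act in the removal of DNA methylation 5 fell, none rose and 3 did not pass, and the same 5 passed on leaving out any 1 library. ROS1, the main demethylase of vegetative tissue, had 1.24, 1.36 and 1.02 FPKM in arid2/3/4, against 15.6, 15.2 and 17.2 FPKM in WT (-2.95 ± 0.15, limma adjusted p = 7.01e-05). IDM1, a histone acetyltransferase that opens sites for ROS1, had 1.68, 1.28 and 2.46 FPKM in arid2/3/4, against 7.2, 6.22 and 6.86 FPKM in WT (-1.49 ± 0.18, limma adjusted p = 0.00137). IDM2, an alpha-crystallin domain protein of the same complex, had 0.0963, 0 and 0.0257 FPKM in arid2/3/4, against 1.2, 1.15 and 1.5 FPKM in WT (-1.13 ± 0.11, limma adjusted p = 0.000669). In each of these the arid2/3/4 libraries lay below all WT libraries, and IDM2 was at or near 0 in all 3 of them. The demethylase DML2 had 2, 1.99 and 2.27 FPKM in arid2/3/4, against 6.57, 5.85 and 4.69 FPKM in WT (-1.11 ± 0.15, limma adjusted p = 0.00218). The HSP20-like gene AT1G20870 also fell (-1.17), while the demethylases DME and DML3 and the methyl-binding gene MBD7 did not pass. The median was -1.12 and the log2 ratio in replicate 3 had a median of -0.99. All 5 calls held throughout, in the averaged fit too.

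Of 31 genes of RNA-directed DNA methylation 10 were lower, 2 were higher and 19 did not pass, with a median of -0.29. The median log2 ratio was -0.30 in replicates 1 and 2 but -0.06 in replicate 3, where 14 ratios were above 0 and 17 below. Of all genes tested 12% were lower and 8.78% higher, so the share of higher members was near that of all genes. The 2 that rose stood well apart from the rest. AGO9, an Argonaute best known from the ovule, had 5.39, 5.27 and 9.46 FPKM in arid2/3/4, against 0.609, 0.693 and 0.165 FPKM in WT (2.35 ± 0.24, limma adjusted p = 0.000769). The gene chr31, which encodes the CLASSY-type chromatin remodeller CLSY3, had 4.71, 4.5 and 8.59 FPKM in arid2/3/4, against 0.318, 0.284 and 0.355 FPKM in WT (2.35 ± 0.22, limma adjusted p = 0.000521). For both genes every mutant library exceeded every WT library and replicate 3 was the highest. DCL3, the Dicer that makes the small RNAs of this pathway, had 0.37, 0.352 and 0.66 FPKM in arid2/3/4, against 2.2, 2.13 and 3.07 FPKM in WT (-1.24 ± 0.17, limma adjusted p = 0.00237), again without overlap. DRD1 (-1.37), a remodeller that serves RNA polymerase V, and IDN2 (-1.25), which binds double-stranded RNA, also fell. So did NRPE1, the largest subunit of polymerase V (-1.01), whose call ended in the averaged fit (-0.94, adjusted p = 0.06). The averaged fit called 3 lower and 2 higher, the block fit 12 and 4, and without WT replicate 1 or arid2/3/4 replicate 2 the count of lower genes was 6.

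Among 12 genes of methylation maintenance and silencing, 5 fell, 1 rose and 6 did not pass, with a median of -0.56. SUVH5, a histone H3 lysine 9 methyltransferase, had 0.307, 0.169 and 0.302 FPKM in arid2/3/4, against 1.81, 1.91 and 2.43 FPKM in WT (-1.27 ± 0.14, limma adjusted p = 0.00108), with no overlap and a call that held throughout. The other calls did not: the averaged fit kept SUVH5 alone, the block fit called 8 lower, and on leaving out WT replicate 1 or either of arid2/3/4 replicates 1 and 2 the count was 1 (2 without WT replicate 2, 3 without epcr1/2 replicate 1). The related gene SUVH6 had 4.63, 3.94 and 5.72 FPKM in arid2/3/4, against 8.85, 7.73 and 9.47 FPKM in WT (-0.75), and its call ended on leaving out WT replicate 1 or either of arid2/3/4 replicates 1 and 2 (-0.74 to -0.65). SDC, a gene silenced by methylation in seedlings, had 0.613, 0.614 and 17.1 FPKM in arid2/3/4, against 0.026, 0.0299 and 0.596 FPKM in WT and did not pass (limma adjusted p = 0.364). Every mutant library exceeded every WT library, and arid2/3/4 replicate 3 was far above the rest. Of 14 histone deacetylase genes tested, 2 rose, 2 fell and 10 did not pass, near the 8.78% higher and 12% lower of all genes tested. Without WT replicate 1 or WT replicate 2 the counts were 0 and 1. HDA2 had 1.07, 1.23 and 1 FPKM in arid2/3/4, against 4.51, 4.89 and 2.84 FPKM in WT (-1.25 ± 0.18, limma adjusted p = 0.00301) and was the only one of the 4 to keep its call throughout.

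AGO5, an Argonaute of the germ line, rose as well and was among the 15 largest rises. It had 21.8, 19.9 and 38.2 FPKM in arid2/3/4, against 0.0214, 0.0498 and 0.28 FPKM in WT (4.58 ± 0.24, limma adjusted p = 7.01e-05). VIM5, of the VARIANT IN METHYLATION family, was singled out after its values were seen and had 9.58, 8.31 and 21.1 FPKM in arid2/3/4, against 0.0186, 0 and 0.131 FPKM in WT (3.63 ± 0.31, limma adjusted p = 0.000373). Both were near 0 in every WT library, were highest in arid2/3/4 replicate 3, and kept their calls throughout. In all, 174 genes were under 0.5 FPKM in every WT library and at 1 FPKM or more in every arid2/3/4 library, and the reverse held for 99 genes. These counts describe levels and carry no test, since such genes are separate by choice. Under 0.1 FPKM in every library of one genotype, the counts were 35 and 8.

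**Figure D3:**
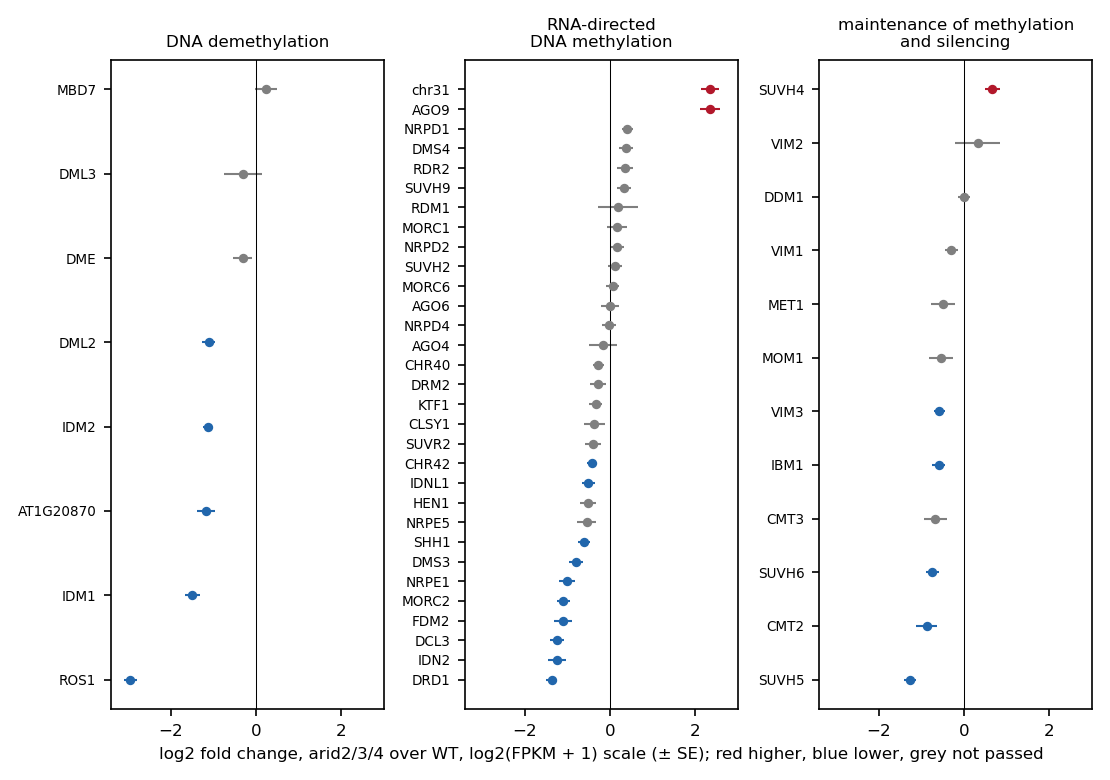
Log2 fold changes of arid2/3/4 over WT on the log2(FPKM + 1) scale, with SE, for 8 genes of DNA demethylation, 31 of RNA-directed DNA methylation and 12 of maintenance and silencing. Red marks genes called higher and blue genes called lower by limma, and grey those that did not pass. In the demethylation panel 5 of 8 are blue, with ROS1 the farthest to the left, and chr31 and AGO9 stand alone at the right of the middle panel.

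Most genes of anthocyanin synthesis rose. Anthocyanins are the red pigments made from flavonoids, and the transcription factors PAP1 and TT8 switch on the late steps of the pathway. Of 13 flavonoid genes tested (MYB11 did not reach the filter), 9 rose and 4 did not pass, with a median log2 fold change of 1.70. Of all genes tested 8.78% rose. PAP1 (AT1G56650) had 105, 87.4 and 21.6 FPKM in arid2/3/4, against 4.73, 3.41 and 3.14 FPKM in WT (3.66 ± 0.54, limma adjusted p = 0.00332). TT8 had 8.65, 8.81 and 6.61 FPKM in arid2/3/4, against 1.42, 0.915 and 0.806 FPKM in WT (2.14 ± 0.19, limma adjusted p = 0.000396). PAP1 was lowest in replicate 3 of both genotypes, TT8 likewise, and no mutant library fell within the WT range. DFR, the first enzyme specific to anthocyanins and tannins, had 199, 176 and 200.3 FPKM in arid2/3/4, against 25.1, 23.1 and 19.8 FPKM in WT (3.03 ± 0.26, limma adjusted p = 0.000366). LDOX, the next enzyme, had 169, 164 and 114 FPKM in arid2/3/4, against 23.9, 25.9 and 15.9 FPKM in WT (2.72 ± 0.24, limma adjusted p = 0.000446), and the sugar transferase UF3GT had 49.1, 44.6 and 28.4 FPKM in arid2/3/4, against 4.88, 6.41 and 3.42 FPKM in WT (2.82 ± 0.26, limma adjusted p = 0.000534). These libraries did not overlap, and DFR was as high in arid2/3/4 replicate 3 as in replicate 1. GSTF12, a glutathione S-transferase needed to carry the pigment into the vacuole, had 109, 105 and 72.2 FPKM in arid2/3/4, against 14.4, 13.7 and 9.05 FPKM in WT (2.85 ± 0.22, limma adjusted p = 0.000273). All 6 of these calls held throughout.

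The early steps, which also feed other flavonoids, changed less. CHS, chalcone synthase, had 403, 397 and 354 FPKM in arid2/3/4, against 154, 201 and 170.03 FPKM in WT (1.14 ± 0.26, limma adjusted p = 0.02). F3H had 214, 189 and 99.3 FPKM in arid2/3/4, against 49, 47 and 48.9 FPKM in WT (1.7 ± 0.28, limma adjusted p = 0.00528). Neither overlapped with WT. Genes of the flavonol branch did not pass, although the activator MYB12 (-0.7) passed as lower with the block fit (adjusted p = 0.00631). FLS1, flavonol synthase, had 35.4, 32.4 and 5.87 FPKM in arid2/3/4, against 68.1, 65.5 and 24.7 FPKM in WT (-1.27 ± 0.65, limma adjusted p = 0.207), and its other activator MYB111 had 1.29, 1.26 and 1.44 FPKM in arid2/3/4, against 4.92, 5.17 and 2.81 FPKM in WT (-1.15 ± 0.38, limma adjusted p = 0.0673). Both had negative fold changes. PAP2 (AT1G66390), a close relative of PAP1, had 22.2, 20.07 and 0.401 FPKM in arid2/3/4, against 2.63, 2.22 and 0.0638 FPKM in WT and did not pass (limma adjusted p = 0.227), with both replicates 3 near 0. The averaged fit called 5 of the 13 higher (PAP1, TT8, DFR, LDOX and UF3GT). The call of CHS ended on leaving out WT replicate 1 or either of arid2/3/4 replicates 1 and 2 (1.05 to 1.11).

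**Figure D4:**
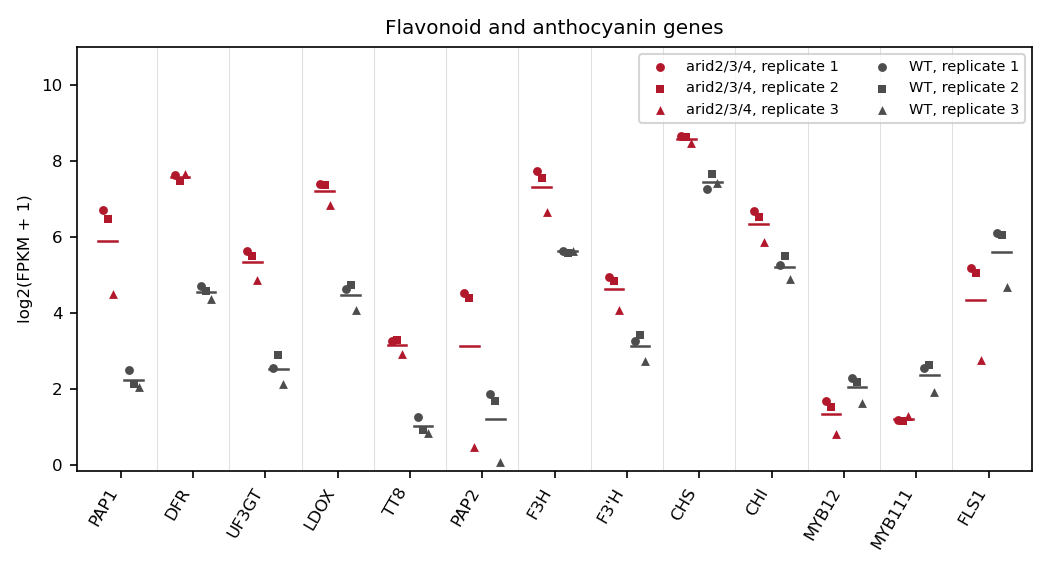
Values of log2(FPKM + 1) for 13 genes of flavonoid and anthocyanin synthesis, a point for each library, with arid2/3/4 in red left of WT in grey and a line at the mean of 3. The 9 genes called higher have all 3 red points above the grey ones, and FLS1, MYB111 and MYB12 have lower means in arid2/3/4 without passing, MYB12 being lower with the block fit.

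Of 7 genes of indole glucosinolate synthesis 3 rose and 4 did not pass, with a median of 0.59. Glucosinolates are sulfur compounds of the mustard family, made from tryptophan (indole) or methionine (aliphatic). CYP79B2, which takes tryptophan into the indole pathway, had 166, 163 and 87.1 FPKM in arid2/3/4, against 35.2, 35.1 and 25.4 FPKM in WT (2.04 ± 0.26, limma adjusted p = 0.00191). CYP83B1, the next enzyme, had 216, 211 and 271 FPKM in arid2/3/4, against 95.5, 102 and 98.5 FPKM in WT (1.22 ± 0.22, limma adjusted p = 0.00729). Neither pair overlapped, and both calls held throughout. In the aliphatic branch 2 of 11 rose, 1 fell and 8 did not pass (median -0.16). Of all genes tested 8.78% rose and 12% fell, and the aliphatic counts lay near these shares. The gene that fell was MAM3, which elongates the methionine chain, at 23.4, 21.8 and 17.35 FPKM in arid2/3/4, against 82.2, 75.6 and 52.8 FPKM in WT (-1.69 ± 0.21, limma adjusted p = 0.00149), and it too kept its call throughout. Without any 1 of WT replicates 1 to 3, arid2/3/4 replicates 1 and 2 and epcr1/2 replicate 2 the count of rises was 1, and without arid2/3/4 replicate 3 that of falls was 2.

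Seed genes were expressed in these seedlings, and here replicate 3 differed most from the others. OLEO2, an oil body protein, had 45.8, 44.1 and 6.06 FPKM in arid2/3/4, against 0.288, 0.133 and 0.124 FPKM in WT (4.38 ± 0.69, limma adjusted p = 0.00425). CRU3, a cruciferin storage protein, had 179, 169.8 and 2.08 FPKM in arid2/3/4, against 0.339, 0.433 and 0.169 FPKM in WT. CRA1, another cruciferin, had 125, 114 and 4.44 FPKM in arid2/3/4, against 0.355, 0.521 and 0.37 FPKM in WT. All 3 libraries of arid2/3/4 exceeded WT in each, but replicate 3 was far below replicates 1 and 2. Over 16 storage and oil body genes the median log2 ratio was 5.46 in replicates 1 and 2 and 0.83 in replicate 3. Of these 10 rose, 16 with the block fit and 3 in the averaged fit. The count was 4 to 6 without any 1 of WT replicates 1 to 3, arid2/3/4 replicates 1 and 2 and epcr1/2 replicates 1 and 2, and 16 without arid2/3/4 replicate 3. SESA4, of the tandem albumin genes whose reads may be split, had 160.1, 155 and 0.206 FPKM in arid2/3/4, against 0.498, 0.454 and 0.103 FPKM in WT and did not pass. Its 2S albumin transcript was therefore present in arid2/3/4 replicates 1 and 2 and hardly in replicate 3.

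Late embryogenesis abundant (LEA) genes protect drying seeds. Of 72 tested genes described as LEA 23 rose, 6 fell and 43 did not pass, with a median of 0.63 (0.36 in replicate 3). Of all genes tested 8.78% rose and 12% fell. The averaged fit called 13 higher and 5 lower. These genes were matched by a phrase in the annotated name and not by expression in seeds, so the group may be mixed. A shorter list of 9 seed LEA genes was picked by hand. LEA18 had 105, 81.1 and 35.5 FPKM in arid2/3/4, against 0.953, 0.541 and 2.35 FPKM in WT (4.98 ± 0.51, limma adjusted p = 0.000777). EM6 had 27.6, 25 and 10.5 FPKM in arid2/3/4, against 0.0906, 0.207 and 0.328 FPKM in WT (4.09 ± 0.47, limma adjusted p = 0.00119). AT3G15670 had 54, 53.2 and 19 FPKM in arid2/3/4, against 0.788, 0.398 and 1.16 FPKM in WT (4.48 ± 0.45, limma adjusted p = 0.000751). Replicate 3 was the lowest mutant library in each and remained above every WT library. Of these 9 genes 8 rose and 1 did not pass, and the averaged fit called 6. The median log2 ratio was 4.73 in replicates 1 and 2 and 2.12 in replicate 3. Of 7 regulators of seed maturation only ABI3 passed, at a low level of 0.521, 0.48 and 0.42 FPKM in arid2/3/4, against 0.0236, 0.0548 and 0.0358 FPKM in WT (0.5), and the call ended without any 1 of replicates 1 and 2 of arid2/3/4 or WT (0.48 to 0.52) and in the averaged fit.

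Among genes of the shoot meristem and organ boundary, CUC1, a NAC factor that sets the boundary between organs, had 5.68, 4.59 and 3.98 FPKM in arid2/3/4, against 0.556, 0.471 and 0.173 FPKM in WT (2.04 ± 0.27, limma adjusted p = 0.00198). The groups did not overlap and the call held throughout. STM also rose (1.04), but its call ended without any 1 of 8 libraries (0.83 to 1.22), and the other 8 of 10 genes did not pass. With the block fit 5 rose. Of 14 floral organ genes 8 reached the filter, and 5 of these rose, against 8.78% of all genes tested. The count was 2 without arid2/3/4 replicate 1, 3 without arid2/3/4 replicate 2 and 1 in the averaged fit. AP3 and SHP2, among the 5, were under 0.5 FPKM in every WT library and were tested only through mutant libraries. The organ identity gene SHP1 had 2.74, 3.07 and 1.65 FPKM in arid2/3/4, against 0.762, 0.508 and 0.374 FPKM in WT and PI had 3.69, 4.27 and 1.98 FPKM in arid2/3/4, against 0.409, 0.645 and 0.69 FPKM in WT. Both were without overlap, lowest in mutant replicate 3, and ended in the averaged fit (1.1 for SHP1, adjusted p = 0.0585, and 1.26 for PI, adjusted p = 0.0576). SMZ, a repressor of flowering, had 6.59, 6.07 and 7.6 FPKM in arid2/3/4, against 2.98, 2.2 and 3.59 FPKM in WT (0.99 ± 0.17, limma adjusted p = 0.00621).

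Jasmonate genes that passed with limma had all risen. For jasmonate, the hormone of wounding, AOS, an enzyme of its synthesis, had 96.8, 93 and 108 FPKM in arid2/3/4, against 48.3, 50.3 and 57.6 FPKM in WT (0.92 ± 0.13, limma adjusted p = 0.00288). The response gene CORI3 had 797, 789.9 and 391 FPKM in arid2/3/4, against 45.8, 49.9 and 51.9 FPKM in WT (3.65 ± 0.45, limma adjusted p = 0.00162), and the repressor JAZ1, itself induced by the hormone, had 47.9, 49.5 and 27.4 FPKM in arid2/3/4, against 14, 13.1 and 7.09 FPKM in WT (1.79 ± 0.32, limma adjusted p = 0.00695). None of these overlapped with WT and all held throughout. In synthesis 4 of 10 rose, among repressors and turnover 3 of 13, and in response 4 of 7, with no member lower. With the block fit these counts were 8, 7 and 5, and in the averaged fit 3, 1 and 3. Replicates 1 and 2 alone called 1 synthesis and 1 response gene lower. Without WT replicate 1 the synthesis count was 2, without arid2/3/4 replicate 3 the repressor count was 6, and without any 1 of replicates 1 and 2 of arid2/3/4 or WT the response count was 2. In salicylic acid and immunity 2 of 16 rose, near the 8.78% of all genes tested. The count was 5 with the block fit or without arid2/3/4 replicate 3 and 1 in the averaged fit. Replicates 1 and 2 alone called 9 higher and 3 lower, and 1 was lower without WT replicate 3. PR2, a glucanase, had 281, 284 and 97.1 FPKM in arid2/3/4, against 29.5, 36.3 and 8.49 FPKM in WT (3.17 ± 0.6, limma adjusted p = 0.00887), and EDS5, a transporter in salicylic acid synthesis, had 19.9, 19.2 and 10.9 FPKM in arid2/3/4, against 5.22, 4.79 and 3.16 FPKM in WT (1.69 ± 0.26, limma adjusted p = 0.00375). Both were above WT in each replicate. The call of PR2 ended in the averaged fit (3.22, adjusted p = 0.0557).

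In several families of defence and turnover more members were called higher than lower, where of all genes tested 8.78% were higher and 12% lower. Of 73 tested genes of the TIR-NBS-LRR immune receptor family 10 rose and 1 fell, and 2 and 1 in the averaged fit. The family's median log2 ratio was 0.02 in replicates 1 and 2 and 0.37 in replicate 3. Replicates 1 and 2 alone called 23 of its genes higher and 21 lower, so its lean to rises lay mainly in replicate 3. AT3G04220 had 3.57, 3.82 and 2 FPKM in arid2/3/4, against 0.246, 0.203 and 0.249 FPKM in WT (1.71 ± 0.2, limma adjusted p = 0.00115) and AT3G51570 had 2.27, 2 and 3.69 FPKM in arid2/3/4, against 0.0794, 0.162 and 0.115 FPKM in WT (1.68 ± 0.17, limma adjusted p = 0.000737). Both were under 0.5 FPKM in all WT libraries. Of 31 cysteine-rich receptor-like kinases 7 rose and 1 fell, and in the averaged fit 1 each. Their median log2 ratio was 0.15 in replicates 1 and 2 and 0.59 in replicate 3. Of 173 cytochrome P450 genes 47 rose and 20 fell, a median of 0.30, and 18 and 11 in the averaged fit. Of 629 F-box genes, whose proteins pick targets for degradation, only 202 reached the filter. Of these 45 rose and 21 fell, and 29 and 5 in the averaged fit. A gene silent in WT, such as AT1G26515, was tested only through mutant libraries, so these counts describe the tested members alone. AT1G26515 had 7.57, 7.23 and 10.6 FPKM in arid2/3/4, against 0.0439, 0.0506 and 0.148 FPKM in WT (3.12 ± 0.21, limma adjusted p = 0.00019), and AT3G47030 had 7.55, 8.02 and 19.95 FPKM in arid2/3/4, against 0.262, 0.202 and 0.639 FPKM in WT (3.12 ± 0.34, limma adjusted p = 0.000936). These 2 were barely expressed in WT, and their calls held throughout. Of 14 heat shock genes 8 rose and 1 fell, but the log2 ratio in replicate 3 was above 0 in only 8, and the averaged fit called 1. Without any 1 of replicates 1 and 2 of arid2/3/4 or WT the count was 4.

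Light harvesting genes had negative log2 ratios in all replicates, smaller in size in replicate 3. They encode the proteins that hold chlorophyll around the photosystems. Their median log2 ratio over 17 genes was -1.58 in replicates 1 and 2 and -0.64 in replicate 3, and all 17 were below 0 in both. By limma 8 fell, with the block fit 16 and in the averaged fit 0, and without any 1 of replicates 1 and 2 of arid2/3/4 or WT the count was 0. It was 3 without WT replicate 3, epcr1/2 replicate 1 or epcr1/2 replicate 2, and 15 without arid2/3/4 replicate 3. For chlorophyll synthesis 3 of 14 fell (median -1.08), against 12% of all genes tested. The count was 14 with the block fit and 8 without arid2/3/4 replicate 3 or epcr1/2 replicate 3. It was 1 in the averaged fit or without any 1 of replicates 1 and 2 of arid2/3/4 or WT. PORA held throughout. It encodes a light-dependent protochlorophyllide oxidoreductase and had 0.724, 0.886 and 0.855 FPKM in arid2/3/4, against 4.1, 3.73 and 6.6 FPKM in WT (-1.64 ± 0.19, limma adjusted p = 0.00119). Its groups did not overlap in any replicate. PORB, its more abundant relative, had 57, 54.3 and 147 FPKM in arid2/3/4, against 659, 599 and 224 FPKM in WT (-2.52), and its call ended without any 1 of replicates 1 and 2 of arid2/3/4 or WT (-2.31 to -2.24).

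Of 9 genes of the root endodermis 4 fell and 5 did not pass, against 12% of all genes tested that fell. The endodermis is the root layer sealed by the Casparian strip, which CASP proteins lay down. CASP1 had 7.03, 5.66 and 4.62 FPKM in arid2/3/4, against 24.4, 29.3 and 31.5 FPKM in WT (-2.13 ± 0.18, limma adjusted p = 0.000364). PER64, the peroxidase that builds the strip's lignin, had 3.95, 3.22 and 3.42 FPKM in arid2/3/4, against 9.21, 9.44 and 16.5 FPKM in WT (-1.45 ± 0.24, limma adjusted p = 0.00569). No mutant library reached the WT range, and replicate 3 had the largest negative log2 ratio in both genes. CASP2 (-1.81) and CASP4 (-1.42) fell too. All 4 held throughout, and the averaged fit called 5. RSL4, the factor that drives root hair growth, had 0.385, 0.341 and 0.232 FPKM in arid2/3/4, against 1.73, 1.46 and 1.16 FPKM in WT (-0.89 ± 0.13, limma adjusted p = 0.00346), and its call ended in the averaged fit (-0.87, adjusted p = 0.0587). Of 6 root hair genes 4 fell, against 1 without WT replicate 1 or arid2/3/4 replicate 2, 2 without WT replicate 2 and none in the averaged fit.

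Of 19 aquaporins 5 fell and 1 (PIP2;5) rose, with a median of -0.87, against 12% lower and 8.78% higher of all genes tested. TIP2;3, a vacuolar aquaporin of the root, had 2.59, 2.14 and 1.01 FPKM in arid2/3/4, against 12, 12.4 and 17.5 FPKM in WT (-2.38 ± 0.33, limma adjusted p = 0.00255). PIP2;4, an aquaporin of the plasma membrane, had 2.57, 2.97 and 1.63 FPKM in arid2/3/4, against 10.11, 9.46 and 7.6 FPKM in WT (-1.58 ± 0.2, limma adjusted p = 0.00178). Neither overlapped with WT in any library. The block fit called 10 aquaporins lower, and the count was 9 without arid2/3/4 replicate 3 and 3 without WT replicate 2. The rise of PIP2;5 (0.98) ended without any 1 of replicates 1 and 2 of arid2/3/4 or WT (0.89 to 1.03). Among 16 iron uptake genes only FRU, the factor known as FIT that activates iron uptake in roots, passed, at 0.572, 0.576 and 1.92 FPKM in arid2/3/4, against 3.72, 3.52 and 5.75 FPKM in WT (-1.44 ± 0.27, limma adjusted p = 0.00913). The median of that list was 0.75, opposite to the fall of FRU. No member rose by limma, against 3 with the block fit and 8 without arid2/3/4 replicate 3, where the count of falls was 3. Replicates 1 and 2 alone gave 12 rises and 3 falls.

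Among genes of the cell wall 17 of 58 tested peroxidases fell and 6 rose (13 and 1 in the averaged fit), and 11 of 47 genes described as extensins (a group that includes Pollen Ole e 1 proteins) fell and 2 rose (27 and 4 with the block fit). Of all genes tested 12% fell and 8.78% rose. The peroxidase AT3G01190 had 2.52, 2.23 and 1.73 FPKM in arid2/3/4, against 23, 23.56 and 31.5 FPKM in WT (-3.09 ± 0.18, limma adjusted p = 0.000108). The peroxidase AT2G41480 went the other way, at 29.8, 26.6 and 27.5 FPKM in arid2/3/4, against 3.32, 3.04 and 4.78 FPKM in WT (2.64 ± 0.26, limma adjusted p = 0.000628). Both groups were clearly separate, with replicate 3 beside replicates 1 and 2. Expansins loosen the wall, and 7 of 23 fell (3 in the averaged fit) and 1 rose, EXLA1, at 28.4, 30.6 and 42.7 FPKM in arid2/3/4, against 7.84, 8.98 and 8.47 FPKM in WT (1.87 ± 0.17, limma adjusted p = 0.000522).

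A few genes of cytokinin response, gibberellin turnover and the clock passed. ARR4, a type-A response regulator that cytokinin induces, had 36.2, 29.7 and 37.7 FPKM in arid2/3/4, against 83.2, 57.9 and 70.2 FPKM in WT (-1.0 ± 0.17, limma adjusted p = 0.00582). Of 9 type-A regulators 3 fell (median -0.75), against 12% of all genes tested. The count was 7 with the block fit and 1 without any 1 of replicates 1 and 2 of the 3 genotypes. GA2OX2, which inactivates gibberellin, had 5.34, 4.61 and 10.7 FPKM in arid2/3/4, against 1.54, 1.7 and 1.35 FPKM in WT (1.56 ± 0.26, limma adjusted p = 0.00558). Both genes kept their calls throughout, with replicate 3 of GA2OX2 the highest. Of 18 clock genes 1 rose and 2 fell, against 8.78% and 12% of all genes tested. RVE1 fell (-1.18) and kept its call throughout. LHY rose (1.46) and ELF3 fell (-1.46), with log2 ratios of only 0.41 and -0.31 in replicate 3, and both calls ended in the averaged fit. The block fit called 2 higher and 6 lower, and without WT replicate 3 the counts were 5 and 6, without arid2/3/4 replicate 3 they were 2 and 4, without either of arid2/3/4 replicates 1 and 2 and in the averaged fit they were 0 and 1, and without WT replicate 1 or 2 the count of falls was 1. CCA1, a morning factor of the clock, had 70.8, 66.3 and 44.3 FPKM in arid2/3/4, against 27.3, 25.6 and 82.4 FPKM in WT and did not pass, and its replicate 3 lay the other way round. ELF4, an evening gene, had 18.8, 20.3 and 0.275 FPKM in arid2/3/4, against 138, 130.4 and 1.6 FPKM in WT and did not pass. Its level in replicate 3 was low in both genotypes. The time of harvest of each library is not in the labels.

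Some neighbouring genes moved together. Runs of at least 3 adjacent tested genes called in 1 direction numbered 23 of higher genes (75 genes) and 63 of lower genes (196 genes), with no run over 5. With 8.78% of all genes tested called higher and 12% lower, some such runs arise without any link between neighbours. How many would do so was not tested, so these counts are descriptive. On chromosome 3 the run of ABCC3, ABCC6, ABCC7 and SERAT2;2 rose. The call of SERAT2;2 ended without arid2/3/4 replicate 2 (1.14) and in the averaged fit (1.16, adjusted p = 0.0999). ABCC3, a vacuolar transporter of glutathione conjugates, had 90.6, 89.4 and 74.3 FPKM in arid2/3/4, against 19.5, 19.7 and 12.8 FPKM in WT (2.25 ± 0.19, limma adjusted p = 0.000366), and ABCC6 had 3.46, 3.46 and 3.3 FPKM in arid2/3/4, against 0.755, 0.626 and 0.61 FPKM in WT (1.41 ± 0.13, limma adjusted p = 0.000477). Both were separate from WT in every library. On chromosome 5 the 5 genes from AT5G22520 to AT5G22550 rose, by log2 fold changes of 1.01 to 2.35. The call of AT5G22520 ended without any 1 of WT replicates 2 and 3, arid2/3/4 replicates 1 and 2 and epcr1/2 replicate 1 (1.69 to 2.04) and that of AT5G22540 without either of arid2/3/4 replicates 1 and 2 (1.3 to 1.37), both also in the averaged fit, which breaks the run. Among them AT5G22530 had 4.36, 6.11 and 5.59 FPKM in arid2/3/4, against 0.225, 0.345 and 0.143 FPKM in WT (2.35 ± 0.18, limma adjusted p = 0.000267). On chromosome 5 the 5 genes from AT5G46870 to AT5G46900, with the homeobox gene HB-7 among them, fell, by log2 fold changes of -4.02 to -1.09. AT5G46900 had 2.45, 2.07 and 0.315 FPKM in arid2/3/4, against 32.7, 35.7 and 46.8 FPKM in WT (-4.02 ± 0.35, limma adjusted p = 0.000396). Tandem copies share sequence, so fragments may be split among such neighbours.

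Genes that changed at least 2-fold in both replicates 1 and 2 were followed into replicate 3. Of 1854 such rises, 86.7% had the same sign in replicate 3, against 47% of all genes tested, and 40.6% again passed 2-fold, against 6% of all. The median log2 ratio was 0.80 in replicate 3 and 1.68 in replicates 1 and 2. Of 2179 such falls, 92.6% had the same sign (52.7% of all) and 40.1% again passed 2-fold (7.43% of all), with medians of -0.84 and -1.47. Across all genes tested the log2 ratios of replicates 1 and 2 had r = 0.961, and their mean had r = 0.653 with replicate 3, where genes are not independent replicates. Some changes were absent from replicate 3. CCL, an unstable transcript under clock control, had 31.6, 27.1 and 693 FPKM in arid2/3/4, against 801, 749 and 749.5 FPKM in WT. JMJD5, a histone demethylase gene tied to the clock, had 1.75, 1.24 and 1.78 FPKM in arid2/3/4, against 32, 30.9 and 0.893 FPKM in WT. In CCL the mutant library of replicate 3 matched WT, and in JMJD5 the WT library of replicate 3 was at the low level of the mutant. PCC1 had 34.4, 33.2 and 31.3 FPKM in arid2/3/4, against 421, 407 and 5.7 FPKM in WT, so that it was lower than WT in replicates 1 and 2 and higher in replicate 3. None of these 3 passed with limma, and CCL passed as lower with the block fit (adjusted p = 0.0233).

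**Figure D5:**
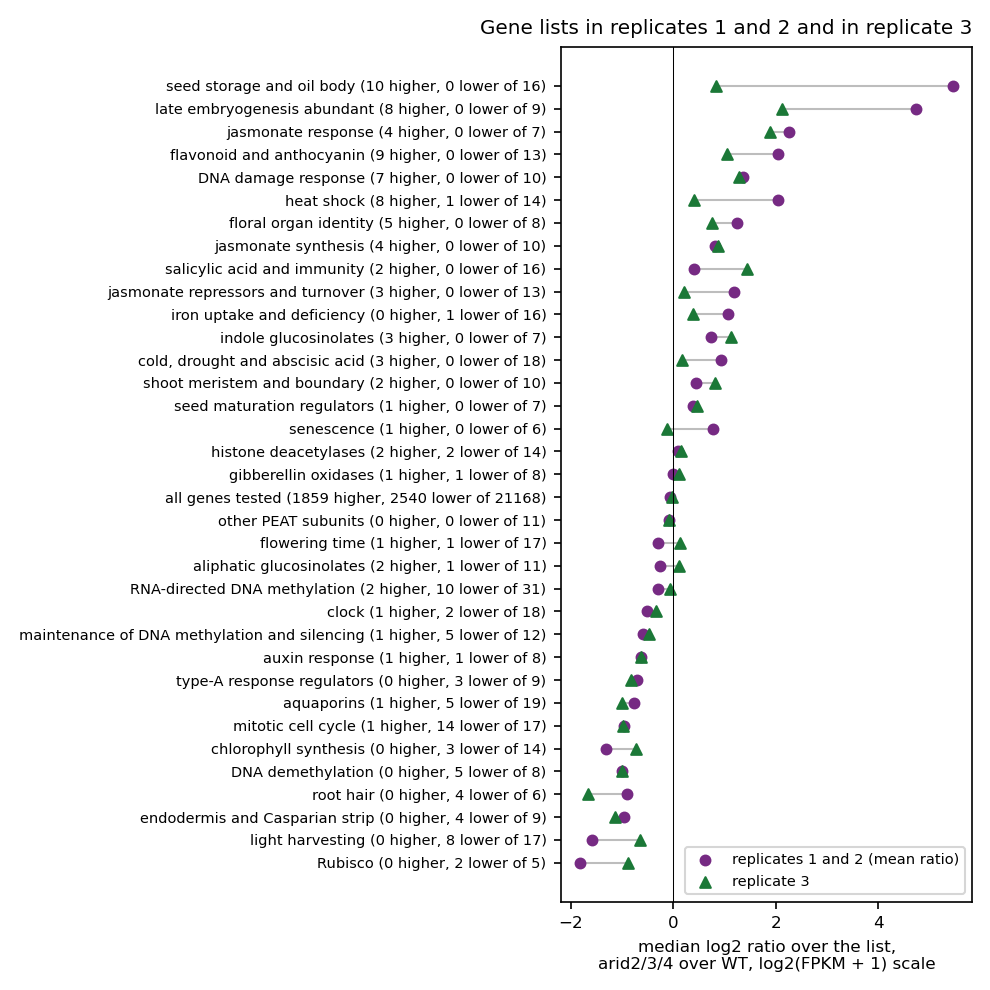
Median log2 ratio of arid2/3/4 over WT, on the log2(FPKM + 1) scale, for each gene list, in replicates 1 and 2 (purple circles) and in replicate 3 (green triangles), with the counts called higher and lower by limma. The DNA damage, mitotic and demethylation lists have nearly the same median in both, and the seed storage list differs most, at 5.46 and 0.83.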

How the data were processed

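Messenger RNA from seedlings was sequenced in 9 libraries. Per the submitters' processing notes, STAR 2.5.2b, Cuffdiff and the TAIR10 build were used, and the authors deposited 1 table of values per gene. The unit is not in the header of this deposited file and was taken to be FPKM, from its unequal column sums, decimals and the steps of the smallest values, so depths are rough estimates and no counting interval is given. All 278 organelle genes were at 0 and were left out.

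The 21168 genes that reached 0.5 FPKM in 3 or more libraries were fitted on the log2(FPKM + 1) scale, unscaled otherwise, with limma 3.58.1 in R 4.3.3 (a mean per genotype over all 9 libraries, variance trend), at a Benjamini-Hochberg adjusted p under 0.05. The script was tested on simulated data. Tables and figures were made with Python 3.11.15, pandas 2.3.3 and matplotlib 3.10.9. Deviations from genotype means correlated by 0.635 to 0.835 between libraries of the same number, over the limit of 0.1 in every pair, so the replicate number was also used as a block. Libraries numbered 1 and 2 correlated as much across numbers (0.66 to 0.765), so this sets replicate 3 apart and does not pair 1 with 1.

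The 22 alternatives were the replicate block, a batch term, replicates 1 and 2 averaged or alone, array weights, only 6 libraries, other pseudocounts, filters and scalings, no trend, and leaving out each library. Genes named were the PEAT genes, the 15 largest changes in each direction, up to 5 called members per list and 2 per family, members of runs, and genes that changed in replicates 1 and 2 only. Members and lists were chosen with earlier results of these data known, and 1 gene of each of 2 lists is not reported here. Motifs were searched in the 250 bases before each gene's start in TAIR10.1, whose annotation supplied names and order by locus tag.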

Additional observations from a re-analysis of the deposited data

How the results depend on the processing

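The count of genes higher in arid2/3/4 was 1859, and 4106 with the replicate block, 4618 with a batch term, 6132 from replicates 1 and 2 only, 781 with these averaged under a replicate block, 6167 with array weights and 1067 with a minimum of 2-fold. The count of lower genes was 2540, and under the same settings 5439, 5977, 7539, 1230, 7767 and 1367. Leaving out each library in turn gave 897 to 3045 higher and 1243 to 4019 lower. The averaged fit rests on fewer samples. Shares of changes with the same sign in replicate 3 were 89.2% for rises and 90.0% for falls at a minimum of 4-fold, and runs of at least 4 numbered 5 higher and 5 lower. Of 199 called genes chosen by the naming rule, 99 kept their call under all 22 alternatives, 60 ended under 1 to 5 and 40 under more than 5, and none reversed. The averaged fit ended 89 and the replicate block none, and the cause was not tested. EPCR2 (0.01), PWWP1 (-0.05) and TRB2 (0.01), which did not pass, changed sign: EPCR2 to -0.02 from replicates 1 and 2 only and -0.06 with array weights (-0.21 to 0.20 with 1 library left out), PWWP1 to 0.02 with median centring and 0.05 after quantile normalization (-0.12 to 0.04), and TRB2 to -0.04 in the averaged fit (-0.06 to 0.12). Of 72 counts of list members, 26 moved by over 1.5 times under the replicate block and 28 in the averaged fit. With no counts used, low genes have no stated counting error.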

Other observations

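The neighbouring genes AT1G68250 and AT1G68260 moved in opposite directions. AT1G68250 had 51, 52.6 and 21.8 FPKM in arid2/3/4, against 0.0824, 0.16 and 0.457 FPKM in WT (log2 fold change 5.03 ± 0.32, limma adjusted p = 0.000141). AT1G68260, described as a thioesterase, had 0.696, 0.75 and 0.956 FPKM in arid2/3/4, against 30.04, 25.1 and 33.3 FPKM in WT (-4.07 ± 0.24, limma adjusted p = 0.000126). Each was near 0 in the genotype where the other was high, in all 3 replicates. These genes were picked after their values were seen. AT5G44306 had 124, 82.3 and 32.9 FPKM in arid2/3/4, against 1.82, 0 and 1.97 FPKM in WT (5.12 ± 0.55, limma adjusted p = 0.000927). Among the largest falls, MLP328, of the major latex protein family, had 16.5, 10.8 and 2.56 FPKM in arid2/3/4, against 129.9, 148 and 88 FPKM in WT (-3.74 ± 0.77, limma adjusted p = 0.0125), and AT3G15450 had 10.3, 8.4 and 18.5 FPKM in arid2/3/4, against 223, 246 and 133 FPKM in WT (-3.93 ± 0.34, limma adjusted p = 0.00042). These 5 calls held under all 22 alternatives.

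Of 54 genes matched as transposable elements by a phrase in the annotated name, only 14 reached the filter and were tested. Of these 2 rose and 12 did not pass, with a median of -0.17, against 8.78% of all genes tested that rose. The 2 that rose are annotated as protein-coding genes of the MuDR transposase family. These counts therefore do not describe the silencing of transposons in general. The block fit called 2 higher and 3 lower, replicates 1 and 2 alone 2 and 6, and the averaged fit none (limma throughout). AT1G49920 had 1.32, 1.54 and 2.58 FPKM in arid2/3/4, against 0.495, 0.673 and 0.305 FPKM in WT (0.9 ± 0.18, limma adjusted p = 0.0115), and its call ended in the averaged fit. The other, AT1G64260 (0.45), lost its call in the averaged fit and without replicate 2 of arid2/3/4 or of WT (0.44 to 0.45).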
